A study of Homo sapiens with 15 samples.

Results

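Chromatin loops at the promoters of the telomeric kallikreins KLK5, KLK6, KLK7, KLK8, KLK9, KLK10, KLK11, KLK12, KLK13 and KLK14 were examined in LNCaP, a long-established human line of prostate cancer cells that respond to androgen. A loop was counted where 1 of its 1 kb anchors overlapped the window from 2.5 kb before to 2.5 kb after the canonical start of a member gene (Gencode release 44, hg19). Each pair of anchors was counted once. The rule used positions only and no measured contact, and it found 20 loops of 505995, at 6 of the 10 genes. For the whole experiment cells were kept for 3 days in charcoal-stripped serum, which is depleted of steroids, and then received either the ethanol vehicle (EtOH, the 0 m samples) or 10 nM of the androgen dihydrotestosterone (DHT), with harvests 30 m, 4 h, 16 h and 72 h later. HiChIP joins DNA ends that lie close together in fixed nuclei and pulls down the joined fragments that carry a histone mark. H3K27ac, a mark of active promoters and enhancers, was labelled with 2 replicates per time point, and H3K4me3, a mark of active promoters, with 1 (15 samples). All samples come from 1 cell line, so they describe these cells and no tissue.

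The deposited contact of a loop is a signal scaled by the authors among the 5 time points of a mark, with 1 value per loop, mark and time point. No value therefore has a replicate error, no test between replicates was possible, and how the 2 H3K27ac replicates were combined is not given in the sources used here. All values (100%) were whole multiples of the worth of 1 read pair, so read pairs were recovered by division, and every 95% interval of a contact change below covers the counting of these read pairs only. The tables held 2475168 to 4308555 read pairs for H3K27ac and 2153262 to 10675614 for H3K4me3, most at 4 h of H3K4me3, counted once per loop. The member loops were weak: their 200 values had a median of 3 read pairs, the largest was 27, and 28 values were 0.

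Kallikreins are secreted serine proteases encoded side by side in a single cluster on the long arm of chromosome 19. They are made as inactive precursors that other proteases, often other kallikreins, cut to activate. KLK2 and KLK3 (the gene of prostate-specific antigen), at the centromeric side, are classical androgen-induced genes of the prostate. The telomeric genes are better known from other epithelia and from brain: KLK5 and KLK7 act in the shedding of the outer skin, and KLK6 and KLK8 are also known as neurosin and neuropsin.

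The 200 bases before the start of the 3 members with most loops are shown beside those of KLK3, since they lie in or beside the bins that the loops join. They were read from GRCh37 (hg19) and run on each gene's own strand. Capitals mark CG dinucleotides. KLK10 is read from the minus strand of chr19:51522966-51523165, KLK11 from the minus strand of chr19:51529873-51530072, KLK12 from the minus strand of chr19:51538259-51538458 and KLK3 from the plus strand of chr19:51357971-51358170.
KLK10: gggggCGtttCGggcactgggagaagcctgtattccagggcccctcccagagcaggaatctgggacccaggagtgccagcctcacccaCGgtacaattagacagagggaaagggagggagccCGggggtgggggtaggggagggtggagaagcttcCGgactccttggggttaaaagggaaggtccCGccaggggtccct
KLK11: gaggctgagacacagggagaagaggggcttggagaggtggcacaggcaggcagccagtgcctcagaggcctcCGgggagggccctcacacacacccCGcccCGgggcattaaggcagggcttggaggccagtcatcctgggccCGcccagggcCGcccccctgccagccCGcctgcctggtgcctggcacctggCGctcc
KLK12: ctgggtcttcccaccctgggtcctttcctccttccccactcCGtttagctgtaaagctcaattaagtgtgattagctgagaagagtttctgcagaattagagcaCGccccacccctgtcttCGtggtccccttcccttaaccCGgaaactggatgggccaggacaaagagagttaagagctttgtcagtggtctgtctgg
KLK3: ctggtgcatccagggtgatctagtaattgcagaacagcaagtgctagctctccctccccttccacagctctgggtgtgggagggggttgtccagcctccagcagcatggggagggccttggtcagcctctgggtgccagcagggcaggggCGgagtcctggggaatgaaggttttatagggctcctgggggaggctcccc
These 200 bases hold 6 CG dinucleotides at KLK10, 7 at KLK11, 4 at KLK12 and 1 at KLK3. Over the 300 bases from 250 before to 50 after the start, the 10 members had 3 to 16 CG dinucleotides (median 9) and the other 5 kallikreins 1 to 4. The median was 26 over all protein-coding promoters with a loop and 6 over those without. TATAAA, searched on the gene's own strand, was in 0 of the 10, against 7.01% of all promoters.

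Few loops were called at the telomeric kallikreins. KLK10 had 10 loops, KLK11 had 4, KLK12 had 3, and KLK6, KLK8 and KLK14 had 1 each. No loop was called at KLK5, KLK7, KLK9 or KLK13. Over all 19553 protein-coding promoters 18.1% had no loop, beside 4 of the 10 members, and the median number of loops was 13, beside 1 over the members. On the centromeric side KLK1 had 3 loops, KLK15 had 22, KLK3 had 13, KLK2 had 7 and KLK4, an enamel protease gene that is also expressed in prostate, had 32. An absent loop means that none was called from the merged read pairs, not that no contact existed.

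**Figure D1:**
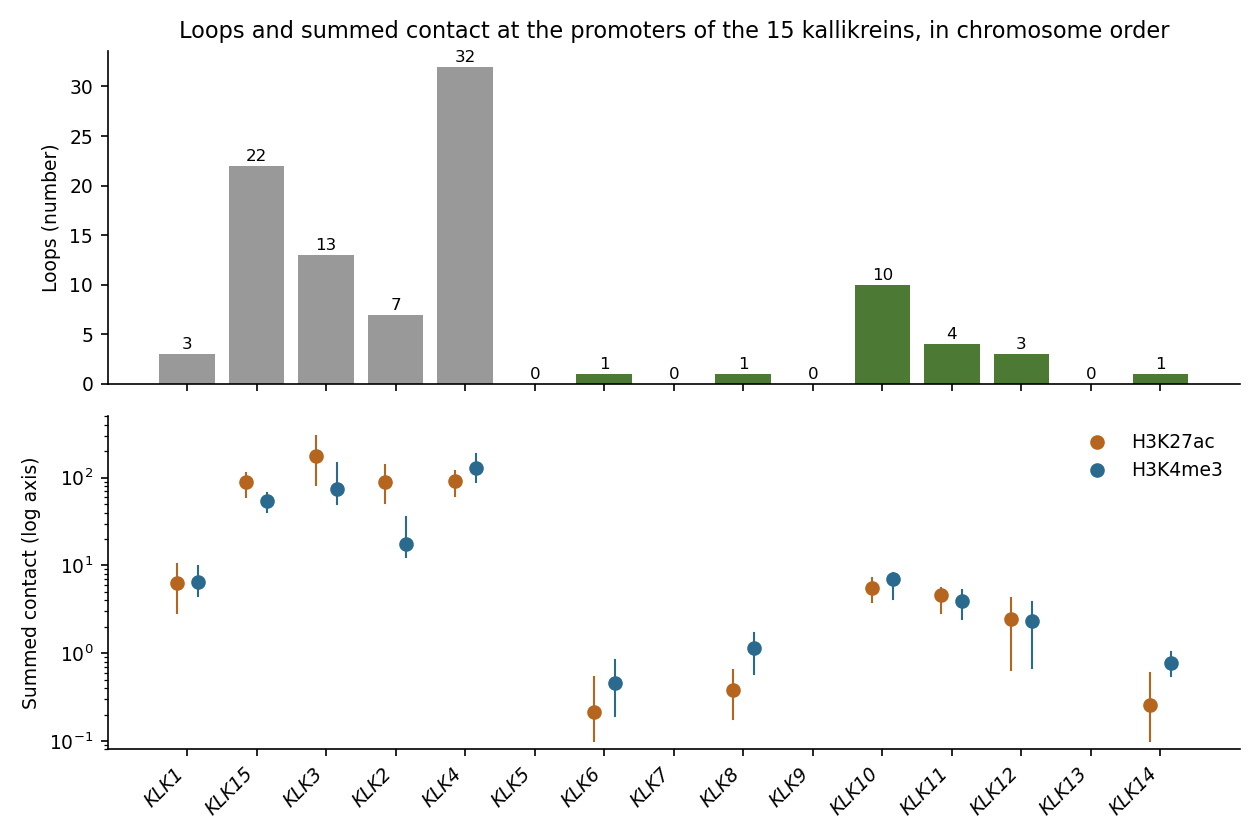
Loops (number, upper panel) and summed contact (TMM-scaled signal, log axis, lower panel) at the promoters of the 15 kallikreins in chromosome order. Green bars are the 10 members and grey bars the other 5. Points are means over 5 time points and vertical lines run from the lowest to the highest of the 5, with values of 0 drawn at 0.1. KLK10 leads the members with 10 loops, and its H3K27ac mean of 5.52 lies below the 90.3 of KLK2.

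In both marks, contact was lower at the members than at KLK2, KLK3, KLK4 and KLK15, while KLK1 lay near KLK10. Summed over its loops and averaged over the 5 time points, H3K27ac contact was 5.52 at KLK10, 4.60 at KLK11, 2.47 at KLK12, 0.377 at KLK8, 0.256 at KLK14 and 0.213 at KLK6. It was 177 at KLK3, 90.3 at KLK2, 91.2 at KLK4 and 90.0 at KLK15, while KLK1, the tissue kallikrein, had 6.27, just above KLK10. H3K4me3 contact was 7.002 at KLK10, 3.98 at KLK11, 2.35 at KLK12, 1.16 at KLK8, 0.766 at KLK14 and 0.458 at KLK6. In this mark it was 73.2 at KLK3, 17.6 at KLK2, 128 at KLK4, 53.6 at KLK15 and 6.41 at KLK1, just below KLK10. The loops were 35 to 360 kb long (median 92.5 kb), and contact falls with length in such maps, so they were also set beside loops of that length. Mean contact per loop was 0.672 for H3K27ac and 0.786 for H3K4me3 at the members. Over all 287741 loops of 35 to 360 kb it was 0.985 and 1.07, over the 172667 of these with a protein-coding promoter at an anchor it was 0.932 and 1.55, and over the 10 loops of KLK2 and KLK3 in that range it was 2.79 and 2.44.

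The stretch from KLK5 to KLK14, 144.586 kb with the promoter windows, held 17 anchors with 41 loops, or 28.4 loops per 100 kb. From KLK1 to KLK4 the 97.25 kb held 14 anchors with 130 loops, or 134 per 100 kb. Within the cluster, 22 loops with a summed mean H3K27ac contact of 112 spanned the gap between the KLK2 and KLK4 starts. The gap from KLK4 to KLK5 was spanned by 9 loops, with a contact of 5.45. Gaps between neighbouring members from KLK5 to KLK13 had 7 to 10 loops, with 4.82 to 9.64. The gap from KLK13 to KLK14 had 1, with 0.675. Loops with ends anywhere that spanned the KLK2 to KLK4 and KLK4 to KLK5 gaps numbered 120 and 85. Lengths were not matched in these counts. None of the 20 member loops joined the promoters of a pair of members.

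KLK10, a kallikrein first described as lost in breast tumours, had the most loops, and they ran in both directions. From 0 m to 72 h, in order of time, its summed H3K27ac contact was 4.70 (16 read pairs), 7.20 (40), 6.62 (31), 3.82 (18) and 5.26 (20). Its H3K4me3 contact was 8.18 (29 read pairs), 7.86 (23), 6.73 (85), 8.12 (42) and 4.12 (15). H3K27ac was thus highest at 30 m and H3K4me3 lowest at 72 h. Of its 10 loops 9 were in the H3K4me3 set and 2 in the H3K27ac set, with 1 of these in both sets.

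KLK11, a gene known as hippostasin that is expressed in prostate and brain, had 4 loops, all called in the H3K27ac set. In the same order, its summed H3K27ac contact was 5.29 (18 read pairs), 5.04 (28), 4.27 (20), 5.52 (26) and 2.89 (11). H3K4me3 contact was 4.23 (15 read pairs), 4.10 (12), 3.88 (49), 5.22 (27) and 2.47 (9). KLK11 was lowest at 72 h in both marks. Its loop to an anchor 70 kb on the telomeric side was the strongest member loop in H3K27ac, with a contact of 1.47, 1.98, 1.28, 2.97 and 1.05 over the time points (40 read pairs in all). It was highest at 16 h. Its loop to the promoter of CTU1, a gene of tRNA thiolation, was the strongest in H3K4me3, with 2.54, 2.39, 2.06, 2.71 and 1.37 (61 read pairs).

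KLK12, a trypsin-like kallikrein, had 3 loops and the fewest read pairs of these 3 genes. Its summed H3K27ac contact over the time points was 3.53 (12 read pairs), 2.34 (13), 4.27 (20), 0.637 (3) and 1.58 (6). H3K4me3 contact was 3.38 (12 read pairs), 0.683 (2), 1.90 (24), 1.93 (10) and 3.85 (14). The low points, 16 h in H3K27ac and 30 m in H3K4me3, rest on 3 and 2 read pairs. KLK8, KLK6 and KLK14 had 1 loop each, with 8, 5 and 5 read pairs over the 5 H3K27ac tables and 32, 14 and 19 over the 5 H3K4me3 tables. Their single loops ended at CTU1 (110 kb), at an anchor within the bodies of C19orf81 and SHANK1 (310 kb) and at an anchor between ACP4 and KLK1 (280 kb).

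**Figure D2:**
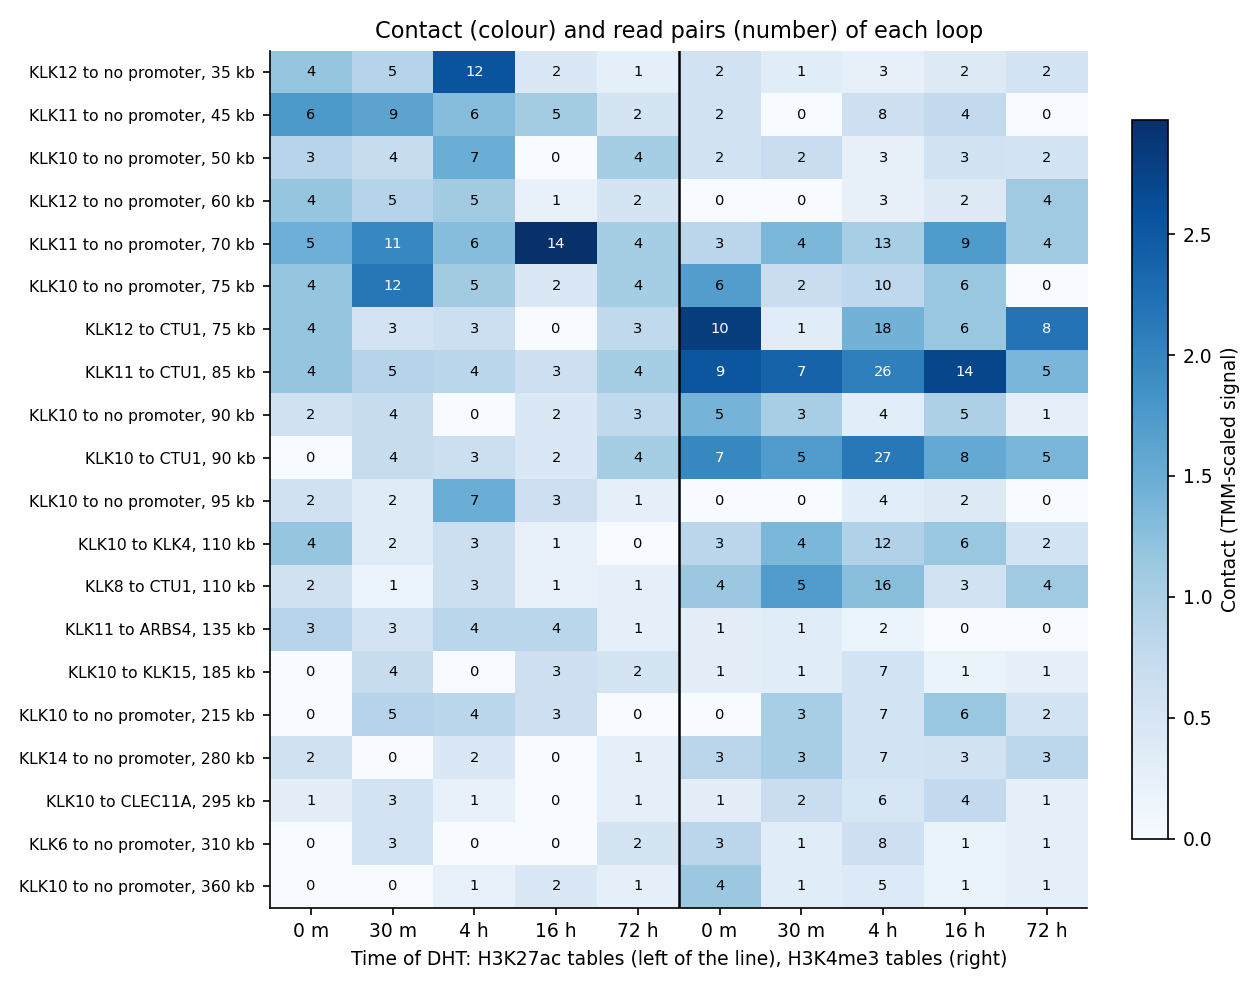
Contact (colour, TMM-scaled signal) and recovered read pairs (printed number) of each of the 20 member loops (rows, shortest at the top) in the 5 H3K27ac and 5 H3K4me3 tables (columns). Rows are named by the member, the gene promoter or enhancer at the other anchor, and the length in kb. The largest value is 27 read pairs, for KLK10 to CTU1 at 4 h of H3K4me3.

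By set, 7 loops were called in H3K27ac only, 12 in H3K4me3 only and 1 in both (5%, against 13.6% of all loops). The 7 are 35%, beside 44.96% of all loops, and the 12 are 60%, beside 41.4%. Reads of a mark were present beyond its own set: 9 loops had at least 1 read pair in every H3K27ac table and 14 in every H3K4me3 table.

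The 20 loops ended on 11 partner anchors. The 3 telomeric partners took 10 loops, all from KLK8, KLK10, KLK11 and KLK12. The first, chr19:51572001-51573000, lies 4152 bp upstream of the KLK13 start and looped to KLK10, KLK11 and KLK12 (70 H3K27ac read pairs). The second, chr19:51597001-51598000, lies 11357 bp upstream of KLK14 and looped to the same 3 genes (84 H3K27ac read pairs). The third, chr19:51612001-51613000, is at the CTU1 promoter and looped to KLK8, KLK10, KLK11 and KLK12, with 54 H3K27ac and 188 H3K4me3 read pairs. Its summed mean contact with the members was 2.50 for H3K27ac and 6.71 for H3K4me3. The other 10 loops ran to 8 centromeric anchors, among them the promoters of KLK4, KLK15 and CLEC11A, the gene of a growth factor for blood cell precursors.

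**Figure D3:**
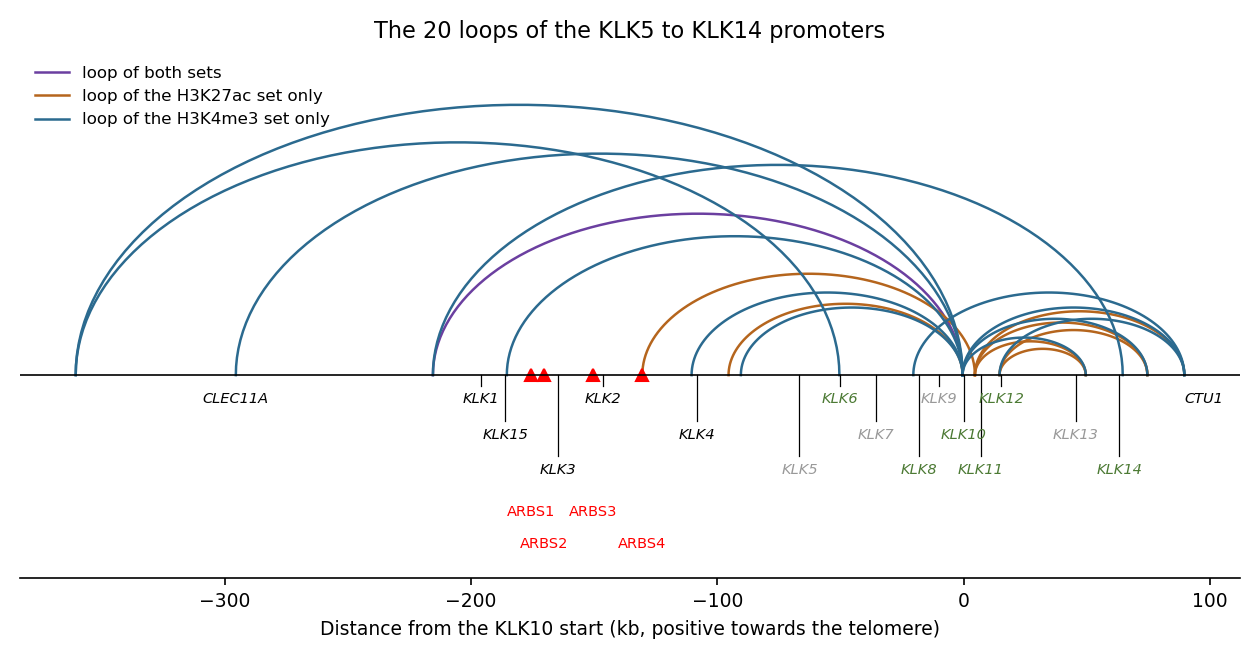
The 20 member loops as arcs over the distance in kb from the KLK10 start (positive towards the telomere), coloured by the set in which each was called. Green gene names are members with loops, grey names members without and black names other genes, and red triangles mark the anchors of the 4 enhancers. The arcs on the right end on 3 anchors, while those on the left pass over KLK5 and reach as far as 360 kb.

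Letters of known motifs were counted in the 5 kb bins of the 11 partner anchors, on both strands. The FOXA1 core TGTTTAC was in 2 of 11 bins (53.2% of all 210061 anchor bins hold it), 1 of them the bin upstream of KLK13. The CTCF core, CCANNAG followed by NNGGC, was in 1 of 11 (14.8%), with 2 matches in the bin 95 kb from KLK10 on the centromeric side. The FOXA1 match at that telomeric anchor and both CTCF matches are shown on the plus strand, with the motif or its reverse complement in capitals, because they lie at anchors that KLK10 loops to. They were read from GRCh37 at chr19:51570296-51570322 for FOXA1 and at chr19:51425284-51425315 and chr19:51425674-51425705 for CTCF. A match is a description of letters, not a binding site.
FOXA1 upstream of KLK13: caaaattcatGTAAACAtttatggaca
CTCF a: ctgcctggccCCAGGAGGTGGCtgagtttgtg
CTCF b: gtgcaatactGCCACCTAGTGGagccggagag

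Whether the telomeric promoters share anchors with the KLK2 and KLK3 enhancers was asked from 4 enhancer windows that the study assigned to these genes (ARBS1 to ARBS4). Each window was placed on the 5 kb bin that holds its 4 CRISPR guides, matched to GRCh37, which gave anchors at 51347001, 51352001, 51372001 and 51392001 of chromosome 19. The guides of the last of these, in the window called ARBS4 and named KLK_ARBS5 in the guide list, are printed with their PAM in capitals, because this is the enhancer a member promoter reached. They lie at chr19:51393046-51393065 (plus strand), chr19:51393058-51393077 (minus), chr19:51393087-51393106 (plus) and chr19:51393175-51393194 (minus).
ARBS4 guide a: gttagcctgccacagttttaTGG
ARBS4 guide b: tgccagtatccataaaactgTGG
ARBS4 guide c: ggattctggatcaaaggcaaAGG
ARBS4 guide d: tgatcattcctgtgggacttAGG
Of the 20 member loops, 0 ended at the promoter of KLK2 or KLK3. A single loop (5%) ended at an enhancer anchor, that of KLK11 to ARBS4 over 135 kb. From 0 m to 72 h it had 3, 3, 4, 4 and 1 H3K27ac read pairs and 1, 1, 2, 0 and 0 H3K4me3 read pairs. Its mean H3K27ac contact was 0.678, while ARBS4 had 22.0 with KLK2 (15 kb) and 10.96 with KLK3 (35 kb). These loops differ in length, and the part of length in the difference was not tested. Over all 505995 loops, 20 ended at the KLK2 or KLK3 promoter, and the 4 enhancer anchors had 13, 7, 22 and 26 loops. Shares among loops of like length in this stretch were not computed. The 0 and the 1 of 20 can therefore not be called few or many.

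At the other ends of the loops anchors were shared. Of the 11 partner anchors, 8 also looped to KLK2 or KLK3 (72.7%), beside 12 of all 57 anchors between the outermost partners (21.1%, the 8 included and the KLK2 and KLK3 promoters left out), as did the partners of 13 of the 20 loops (65%). These loops share partners, 4 of them ending at CTU1, and are not independent of each other. Seen from the other side, 8 of the 15 partner anchors of KLK2 and KLK3 (53.3%) looped to a member, beside 11 of all 57 anchors of that stretch. Some of the 15 lie outside the stretch. KLK4 was joined to 9 of the 11 (81.8%), beside 21 of 58 anchors in that stretch without its own (36.2%, the 9 included), and the 9 were 28.1% of its 32 partner anchors. The KLK4 promoter was itself a further partner, through a loop of 110 kb to KLK10. The anchor at KLK15 had a mean H3K27ac contact of 0.377 with KLK10 (185 kb) and 9.08 with KLK3 (20 kb). The CTU1 anchor went the other way, with 0.924 for KLK11 (85 kb) and 0.347 for KLK3 (255 kb). In both cases the shorter loop had the higher contact, and the part of length was not tested.

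Most partner anchors also had a loop of their own to an enhancer. Without ARBS4 there were 10 partner anchors, and 9 of them had a loop to at least 1 of the 4 enhancer anchors, which made 18 of the 20 member loops and all 6 members with loops. Of all 55 anchors between the outermost partners, without the enhancers, 20 (36.4%) had such a loop, and these include the 9. Both telomeric anchors without a promoter were among them. The anchor upstream of KLK13 looped to ARBS1 (225 kb) with 4, 2, 5, 5 and 2 H3K27ac read pairs over the time points and to ARBS3 (200 kb) with 2, 1, 5, 2 and 5. The anchor upstream of KLK14 looped to ARBS1 (250 kb) with 3, 5, 11, 6 and 1, to ARBS3 (225 kb) with 4, 6, 6, 7 and 6, and to ARBS4 (205 kb) with 3, 2, 5, 7 and 3. These 5 loops had a mean contact of 0.985 each, and the 6 loops from the same 2 anchors to KLK10, KLK11 and KLK12, which are shorter (35 to 75 kb), had 1.14. The part of length in these means was not tested.

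**Figure D4:**
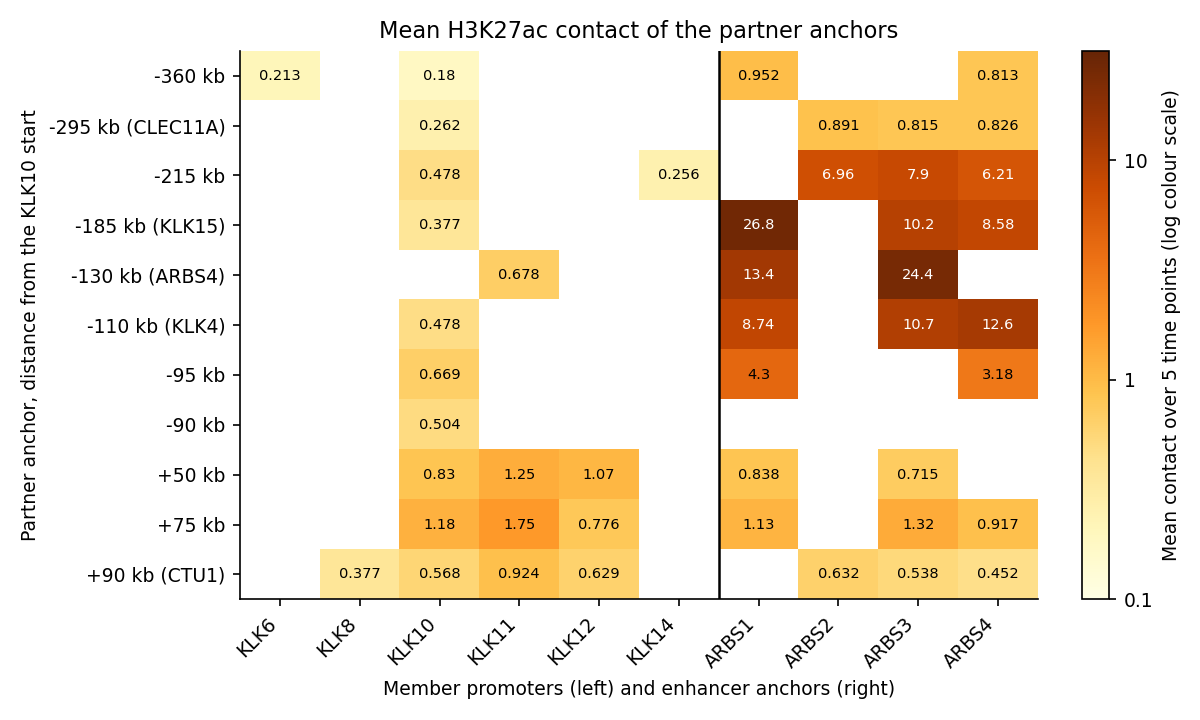
Mean H3K27ac contact over 5 time points (colour on a log scale, and printed value) between each of the 11 partner anchors (rows, by distance from the KLK10 start in kb) and the 6 member promoters with loops (left of the line) or the 4 enhancer anchors (right). Empty cells had no called loop. Contacts of the members, over 35 to 360 kb, stay at or below 1.75. Those of the anchor at the KLK15 promoter with the enhancers reach 26.8, over 10 kb. The part of length in this difference was not tested.

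Over the time course the 2 kinds of loop of these telomeric anchors were set side by side. The 6 loops to members had 26 H3K27ac read pairs at 0 m and then 46, 41, 24 and 17, and the 5 loops to enhancers had 16 and then 16, 32, 27 and 17. By 16 h the first had changed against 0 m by -0.58 (log2, interval -1.45 to 0.27) and the second by 0.29 (interval -0.66 to 1.28). Both intervals include 0. In H3K4me3 the loops to members went from 15 to 26 read pairs over the same span (0.25, interval -0.72 to 1.27), and the loops to enhancers from 3 to 0. The 6 loops between the enhancers and KLK2 or KLK3 changed by 1.15 (interval 1.01 to 1.30) after 4 h of DHT and by 0.89 (interval 0.74 to 1.04) after 16 h, and after 72 h they were below 0 m (-0.50, interval -0.69 to -0.31). The CTU1 anchor looped to both kinds of site too. Its 4 loops to members had 10, 13, 13, 6 and 12 H3K27ac read pairs over the time points, and its 3 loops to enhancers had 1, 13, 15, 7 and 3. The latter changed by 2.99 (interval 0.26 to 8.402) by 30 m and by 3.45 (interval 0.75 to 8.84) by 4 h, values that rest on a single read pair at 0 m, and the intervals of both later times include 0. In H3K4me3 the same 3 loops had 10, 8, 29, 12 and 3 read pairs, with log2 changes of -0.05, -0.30, -0.28 and -1.77, and all 4 intervals include 0.

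Pooled over the 20 loops, no change in contact of the telomeric kallikreins from 0 m was larger than its counting error. In order of time, summed H3K27ac contact was 14.7 (50 read pairs), 15.3 (85), 16.2 (76), 10.2 (48) and 10.8 (41). Summed H3K4me3 contact was 18.6 (66), 15.7 (46), 14.97 (189), 16.6 (86) and 12.6 (46). The later H3K27ac values and the last H3K4me3 value were the lowest. The H3K27ac log2 changes against 0 m were 0.06 (interval -0.46 to 0.59), 0.14 (-0.39 to 0.69), -0.53 (-1.13 to 0.07) and -0.45 (-1.08 to 0.18). For H3K4me3 they were -0.24 (-0.82 to 0.32), -0.31 (-0.73 to 0.11), -0.16 (-0.64 to 0.32) and -0.56 (-1.13 to 0.01). All 8 intervals include 0, and at this depth they leave room for changes of the size printed as their bounds. When every table of a mark was brought to 1 common total of read pairs, the interval lay below 0 for H3K27ac at 16 h (-0.78, interval -1.38 to -0.17) and for H3K4me3 at 4 h (-0.54, interval -0.95 to -0.11). Without KLK10 it lay below 0 for H3K27ac at 72 h (-0.85, interval -1.71 to -0.03), as it did in the 8 loops of the H3K27ac set (-1.06, interval -2.07 to -0.11). The other 12 loops had 0.08 (interval -0.79 to 0.97) at 72 h of H3K27ac. At 16 h of H3K27ac those 12 had -1.23 (interval -2.34 to -0.17) and the 8 had -0.15 (interval -0.91 to 0.62). In the 13 loops of the H3K4me3 set the H3K4me3 interval at 72 h also lay below 0 (-0.70, interval -1.40 to -0.02).

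**Figure D5:**
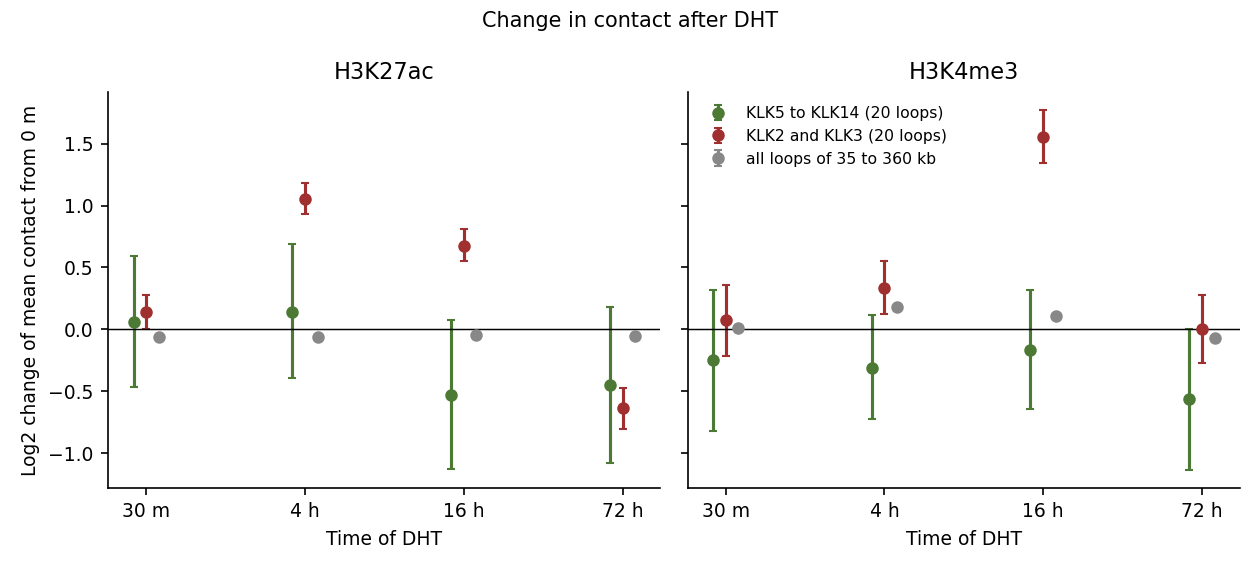
Log2 change of mean contact from 0 m (vertical axis) at the 4 times of DHT, for H3K27ac (left) and H3K4me3 (right). Points are the 20 loops of KLK5 to KLK14, the 20 loops of KLK2 and KLK3, and all loops of 35 to 360 kb, and bars are 95% intervals for counting error. The bars of KLK5 to KLK14 cross 0 throughout, and KLK2 and KLK3 reach 1.05 at 4 h of H3K27ac and 1.55 at 16 h of H3K4me3.

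Loops of KLK2 and KLK3 stood above 0 m by 1.05 (interval 0.93 to 1.18) at 4 h and 0.68 (0.55 to 0.81) at 16 h in H3K27ac, and by 1.55 (1.34 to 1.77) at 16 h in H3K4me3. By 72 h their H3K27ac contact was below 0 m (-0.64, interval -0.80 to -0.47). The telomeric change was lower than theirs by more than counting error at 4 h and 16 h. The difference, telomeric minus KLK2 and KLK3, was -0.91 (interval -1.44 to -0.38) and -1.20 (-1.79 to -0.62) for H3K27ac and -0.65 (-1.10 to -0.19) and -1.72 (-2.23 to -1.21) for H3K4me3. At 30 m and 72 h the intervals included 0 in both marks. KLK2 and KLK3 have 7 loops under 35 kb, shorter than any telomeric loop. With their 10 loops of 35 to 360 kb alone the H3K27ac difference was -0.56 (-1.18 to 0.06) at 4 h and -0.52 (-1.20 to 0.16) at 16 h, both including 0, and at 72 h it was 0.94 (0.14 to 1.73), since these KLK2 and KLK3 loops fell by 1.38. The H3K4me3 difference kept its interval below 0, at -0.83 (-1.40 to -0.26) and -1.54 (-2.16 to -0.92). Loops of the same lengths over the genome changed by -0.06 to -0.04 in H3K27ac and by -0.07 to 0.18 in H3K4me3.

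Single genes were read where 0 m and the later table together held at least 20 read pairs, with a summed contact at least 1.5-fold higher or lower as the threshold of size. At 30 m of H3K27ac, KLK10 was higher (18.7% of all 13377 promoters were) and KLK12 lower (4.96%), of 3 members read. At 4 h none of 3 passed in either direction (5.86% of promoters were higher and 2.13% lower), while all 5 other kallikreins were higher. At 16 h none of 2 passed (17.7% higher, 10.8% lower), and at 72 h KLK11 was lower of 2 (8.1%) and none higher (17.4%). Of the other 5, KLK15 was higher at 30 m and 16 h, KLK2 was higher at 16 h, and KLK1 and KLK3 were lower at 72 h. In H3K4me3 none of 2 passed at 30 m (1.96% higher, 3.1% lower). KLK12 was lower of 4 at 4 h (3.88%) and of 3 at 16 h (1.37%), and none was higher at 4 h (15.9%) or 16 h (5.87%). KLK10 and KLK11 were lower of 3 at 72 h (6.77%), where none was higher (3.52%). In this mark KLK1 was lower than at 0 m in all 4 later tables, and KLK2, KLK3 and KLK4 were higher at 16 h. These counts rest on 2 to 4 members read per table, and their difference from the shares of all promoters was not tested.

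Counting error covers nearly all of these values. Of the 24 intervals for KLK10, KLK11 and KLK12, 3 do not include 0. KLK10 changed by -0.99 at 72 h of H3K4me3 (interval -1.99 to -0.04). KLK12 changed by -2.47 at 16 h of H3K27ac (-4.93 to -0.58), from 12 to 3 read pairs and thus under the minimum of 20, and by -2.31 at 30 m of H3K4me3 (-5.51 to -0.14), from 12 to 2. For KLK10 at 30 m of H3K27ac the value was 0.61 (-0.25 to 1.55). These intervals are not adjusted for their number.

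Outside the cluster, 8 genes of the kallikrein cascade were read. SPINK5, the inhibitor of KLK5 and KLK7 in skin, the serpins SERPINA3 and SERPINA5, which bind kallikreins, and CDSN, a corneodesmosome protein cut in skin shedding, had no loop. SPINK6, another kallikrein inhibitor, and DSG1, a desmosomal substrate, had 2 loops each. F2RL1, the receptor PAR2 that kallikreins can cleave, had 28, and ST14 (matriptase), a membrane protease, had 34. The minimum of 20 read pairs was met by 2 or 3 of the 8 in a table, and among those F2RL1 alone was past 1.5-fold, at 16 h of H3K27ac (0.81, interval 0.48 to 1.15, where 17.7% of promoters were higher) and at 4 h of H3K4me3 (0.83, interval 0.54 to 1.14, with 15.9% higher). The luminal prostate markers KRT8, KRT18, HOXB13, TMPRSS2, FOLH1 and KLK3 had 9 to 68 loops, and the basal markers KRT5, KRT14 and TP63 and the skin markers loricrin, IVL and FLG had none.

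Contact profiles over the 10 tables were compared as log2 summed contact centred within each mark, so the levels of the marks do not enter. Of 2034 promoters with at least 200 read pairs in every table, those most like the pooled members were UQCR11 (Pearson r = 0.958), C8G (0.948) and BRD2 (0.944). The tables share libraries and scaling among all promoters, and these values are a description.

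The rule left out anchors just beyond the windows. The closest telomeric partner, upstream of KLK13, lay 1152 bp outside the KLK13 window and had 18 H3K27ac read pairs with ARBS1, 15 with ARBS3 and 112 with the next bin towards the telomere. An anchor 1654 bp outside the KLK6 window looped to one 1673 bp outside the KLK7 window with 92 H3K27ac and 48 H3K4me3 read pairs. No member loop had more than 40 H3K27ac read pairs, while the KLK11 loop to CTU1 had 61 for H3K4me3. An anchor 644 bp outside the KLK14 window looped to KLK4 with 15 and 17. Just inside, the anchor of KLK11 overlapped its window by 629 bp and that of KLK8 by 641 bp, and the others lay fully within.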

How the data were processed

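HiChIP of H3K27ac and H3K4me3 in LNCaP was mapped to a mark and time point from the labels for all 15 samples. Per the labels and the study's methods, the authors trimmed reads with Trim Galore 0.5.0, aligned them to hg19 with Bowtie2 within HiC-Pro 3.1.0 and called loops with FitHiChIP 10.0 in 5 kb bins on the merged read pairs of a mark. They deposited 10 tables of contact signal, taken from Cooler maps and scaled by TMM (trimmed mean of M values), over 574817 rows (296326 H3K27ac and 278491 H3K4me3 loops). This scaling sets the time points of a mark on a common level, and contact is not compared between marks.

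Here 100% of the values were whole multiples of the smallest value above 0 (tolerance 1e-06), which gave read pairs. Repeated anchor pairs were merged to 505995 loops. Promoters were canonical starts ± 2.5 kb, overlapped by at least 1 bp of an anchor. Log2 changes of summed contact from 0 m have exact conditional binomial intervals. Differences of changes have normal intervals on the log scale, both at 95% and for counting error only. Shares of loops are full counts of loops that share anchors and are printed without intervals. An exact binomial interval served only as the yardstick for a move between settings. Genes were read with at least 20 read pairs and a threshold of 1.5-fold. The text names all 10 members, the other 5 kallikreins, 8 cascade genes, up to 5 leading loops and partner genes per mark, and the 3 promoters most like the members. The members, lists and rules were chosen with earlier results of these data known. The enhancer windows and the 16 guides came from the study's supplementary lists, and the guides were matched to GRCh37. Recovery and intervals were checked on simulated data, where recovery starts from whole counts and could hardly fail. Promoter overlap was checked against a direct search on the loops of chromosome 19, for sampled genes with a hit. Alternatives varied the scaling, the loop length, the overlap, the loop set and the leading gene. Python 3.11.15, numpy 2.4.6, pandas 2.3.3, scipy 1.17.1 and matplotlib 3.10.9 were used. Some items are not reported here.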

Additional observations from a re-analysis of the deposited data

How the results depend on the processing

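Of 53 alternative settings over 12 results, 50 stayed within the 95% interval of the reported value, 3 moved and 0 reversed. For the pooled contact changes, no member loop was under 20 kb and the overlap alternative kept the same 20 loops. These settings repeated the reported values exactly, so they say nothing about their stability. The share of member loops that end at an enhancer anchor, 5%, was 0 among the 13 loops of the H3K4me3 set, 12.5% (1 of 8) in the H3K27ac set and 10% (2 of 20) when the bin next to the enhancer window also counted, which adds the KLK10 loop to the KLK15 anchor beside ARBS1. The H3K27ac difference between telomeric and KLK2 and KLK3 changes at 16 h, -1.20, was -0.56 (interval -1.22 to 0.10) with loops of at least 20 kb. It was -0.52 (interval -1.20 to 0.16) with KLK2 and KLK3 loops of 35 to 360 kb, an alternative added after the data were seen. The other alternatives for that difference gave -1.42 and -1.33, and for H3K4me3 the alternatives gave -2.04 to -1.46. The count of 20 loops did not move with the overlap rule or with the starts of all protein-coding transcripts. The overlap alternative, at least 2500 bp of a 5 kb bin, is close to the main rule. Counting any overlap of the bin was not tried. It would add loops, such as those of the anchor 1152 bp outside the KLK13 window.

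No paired analysis was possible because the tables hold 1 value per mark and time point and carry no replicate number. Leaving out a replicate was not possible for the same reason. The depth limits single loops, with a median of 3 read pairs per value.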
